A study of Bos taurus with 6 samples.

Results

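Liver and gut enriched miRNAs were followed in the extracellular vesicles (EVs) of bovine granulosa cells. The 5 members, bta-miR-122, bta-miR-192, bta-miR-194, bta-miR-215 and bta-miR-885, were chosen by their identifiers, and all 5 were listed among the 512 miRNAs of each EV library. Granulosa cells are the somatic cells that line the ovarian follicle. They were aspirated from small antral follicles (3 to 6 mm) of slaughterhouse ovaries of Bos taurus and cultured in medium with exosome-depleted fetal bovine serum. Control-EVs came from cultures kept at 37 °C, and HS-EVs from cultures exposed to heat stress (HS, 42 °C) for 24 h, and each group has 3 libraries. The study calls the replicates biological, but the animals, their ages and any pooling behind each library are not given in the sources used here, so that p-values measure the spread between these libraries, which may be partly technical. The EVs of both groups were precipitated from spent medium with ExoQuick-TC, a polymer reagent that also carries down other particles of the medium. Libraries of medium without cells were not analysed here.

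A miRNA guides the silencing machinery to messenger RNAs, mainly through its seed, a short stretch near its 5′ end. miR-122 is the dominant miRNA of hepatocytes, which also release it into the blood, where it is used as a marker of liver injury. miR-192 and miR-194 are made from a shared transcript, as are miR-215 and a second copy of miR-194, and these miRNAs are known from the epithelia of intestine, kidney and liver. miR-192 and miR-215 share their seed and most of their sequence, so that reads of the one may have been assigned to the other in the authors' counting. miR-885 is less abundant and has been described in liver and blood. All 5 matched a gene in RefSeq (ARS-UCD2.0, not the assembly the authors used). MIR192 neighbours MIR194-2 and both lie within the span of EHD1, MIR215 neighbours MIR194-1 within the span of IARS2, and MIR885 lies within ATP2B2. No annotated gene spans MIR122. The values of bta-miR-194 do not tell the products of its 2 genes apart.

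The deposited values are read counts normalized by the authors with the trimmed mean of M-values (TMM). Whole reads were recovered from them by taking the smallest value above 0 of a library as 1 read. The libraries then held 274434 to 2360980 reads, and 34141 to 235634 reads once bta-miR-1246 was left out. In every library these totals exceed the reads listed in the study as mapped to annotated miRNAs, and the reason was not tested. Shares and plain ratios of reads do not depend on the value taken as 1 read. Counting intervals do, and so do the log2 ratios below, for which a fraction of a read was added to each count. The single miRNA bta-miR-1246 took 59.9% to 98.6% of the reads of a library, and its share was higher in HS-EVs in 3 of 3 same-numbered pairs (72.6% ± 12.4 for control-EVs against 86.2% ± 11.6 for HS-EVs, SD, n = 3 each; exact permutation test, two-sided, p = 0.3). The study lists bta-miR-1246 as enriched in HS-EVs and reports the same direction by droplet digital PCR. Here its log2 fold change was 2.87 in edgeR's quasi-likelihood test on recovered reads (adjusted p = 0.332). In limma's test on normalized counts it was 1.79 (adjusted p = 0.873). HS-EVs replicate 1 stood apart, with the most reads in all and the fewest on other miRNAs, and values without it are given beside the results it moves most. bta-miR-1246 took 98.6% of its reads, against 75.6% and 84.5% in HS-EVs replicates 2 and 3. These 2 lay within the control-EVs values of 59.9% to 84.6%. Without HS-EVs replicate 1, the log2 fold change of bta-miR-1246 in limma's test was 0.43. Shares below are therefore given on both totals, all reads and reads without bta-miR-1246.

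bta-miR-122 was the most abundant member by far and made up 98.6% to 99.5% of the reads of the 5 members in every library. It ranked 2 among all 512 miRNAs in the 3 control-EVs libraries and in HS-EVs replicate 1, 4 in HS-EVs replicate 2 and 7 in HS-EVs replicate 3. Of the reads without bta-miR-1246, it took 8.70%, 15.5% and 14.7% in control-EVs (values here and below are in the order of replicates 1, 2 and 3), against 9.72%, 7.25% and 5.32% in HS-EVs. The 2 highest values were both control-EVs libraries and the 2 lowest both HS-EVs libraries, while control-EVs replicate 1 lay below HS-EVs replicate 1, so that the groups overlapped. The mean share was 12.9% ± 3.70 for control-EVs against 7.43% ± 2.20 for HS-EVs (SD, n = 3 each), which differ by -5.52 percentage points (p = 0.2, two-sided exact permutation test, which cannot go below 0.1 with 3 libraries a group). On this total 0 of the 5 members had groups that did not overlap, against 6.85% of 511 miRNAs. A lower share of reads does not show fewer copies, since a share also falls when other miRNAs rise. In bulk EVs, the number of vesicles that carry a miRNA and the copies in each cannot be told apart. Without HS-EVs replicate 1 the difference was -6.66 percentage points and the groups no longer overlapped, as was then the case, in the same direction, for 5.87% of the 511 miRNAs.

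**Figure D1:**
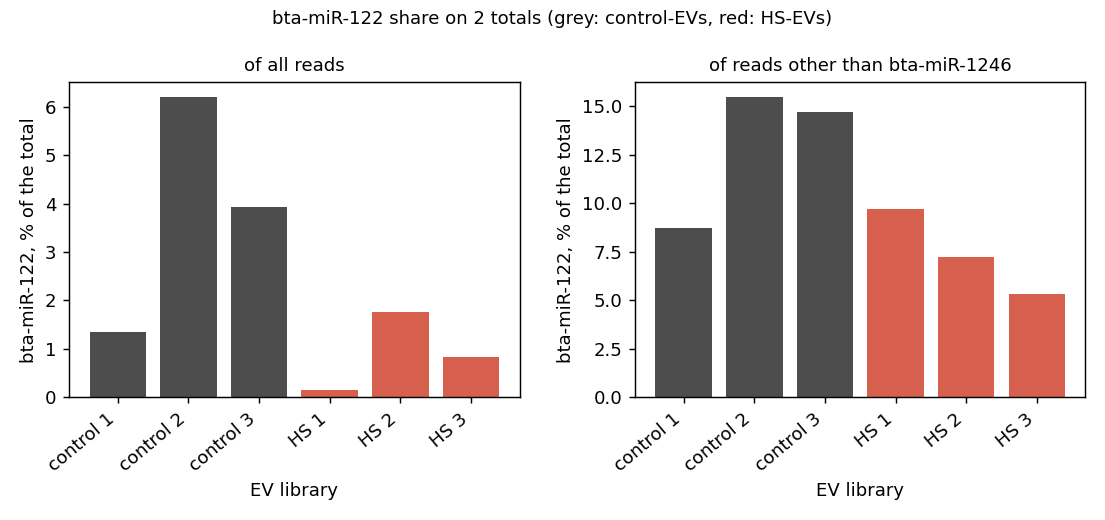
Share of bta-miR-122 in each EV library, as a percentage of all reads (left) and of reads other than bta-miR-1246 (right); grey bars are control-EVs and red bars HS-EVs, 1 library per bar. On the left the bars run from 0.141% (HS-EVs replicate 1) to 6.20% (control-EVs replicate 2), and on the right from 5.32% to 15.5%.

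On the scale of the authors' normalized counts, bta-miR-122 stood at 12232, 25400 and 21350 in control-EVs, against 13633, 9840 and 7524 in HS-EVs. The order of the libraries was the same as on the total without bta-miR-1246. Its means were 19661 ± 6744 for control-EVs against 10332 ± 3084 for HS-EVs (SD, n = 3 each). On the log2(normalized count + 1) scale the difference was -0.91 (standard error 0.49, 95% confidence interval -1.99 to 0.18, adjusted p = 0.873 from limma over all 512 miRNAs). The study's threshold asks for an adjusted p of at most 0.3 and for a log2 fold change of at least 1 in size. By it, 0 of the 5 members passed in limma's test, against 0% of all miRNAs, so that this result is not particular to the members. The study itself used edgeR and reported 5 miRNAs as enriched in HS-EVs, with no member among them. At an unadjusted p of 0.05, 0 of the 5 members passed, against 4.88% of all miRNAs (25 of 512). The log2 fold change was negative for 3 of the 4 members with more than 3 reads in any library, as for 50% of all miRNAs. On recovered reads, edgeR's quasi-likelihood test gave bta-miR-122 a log2 fold change of -0.96 with an unadjusted p of 0.0394 and an adjusted p of 0.798. It was the only 1 of the 5 members at an unadjusted p of 0.05 or less in that test (5.08% of all miRNAs), and 0 members passed the study's threshold (0.586%, 3 of 512). DESeq2 gave bta-miR-122 -0.97 with an unadjusted p of 0.0164 and an adjusted p of 0.995, with 1.95% of all miRNAs at 0.05 or less and 0% past the threshold.

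bta-miR-192, the second member in abundance, was measured with 39, 125 and 47 reads in control-EVs, against 16, 82 and 41 in HS-EVs. Of the reads without bta-miR-1246 these were 0.0509%, 0.0530% and 0.0639% in control-EVs and 0.0469%, 0.0664% and 0.0473% in HS-EVs. The lowest and the highest library were both HS-EVs, and the highest was 1.42 times the lowest. The 95% Wilson intervals of all 6 libraries had the values between 0.0535% and 0.0632% in common, so that differences between the libraries were within counting error. By contrast, the 6 intervals of bta-miR-122 on the same total were separate in 15 of 15 pairs of libraries, from 5.18% to 5.48% in HS-EVs replicate 3 up to 15.3% to 15.6% in control-EVs replicate 2, and its highest value was 2.90 times its lowest. These intervals cover counting error only, and bta-miR-192 rests on far fewer reads than bta-miR-122.

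The group means of bta-miR-192 were 0.0559% ± 0.00696 for control-EVs against 0.0535% ± 0.0112 for HS-EVs (SD, n = 3 each; exact permutation test, two-sided, p = 0.6). In normalized counts they were 83.9 ± 11.0 against 74.3 ± 13.8 (SD, n = 3 each). limma put the log2 fold change at -0.18 (standard error 0.43, 95% confidence interval -1.14 to 0.78, adjusted p = 0.952), which was -0.33 without HS-EVs replicate 2 and -0.10 without HS-EVs replicate 1. It was ranked between 87 and 114 in the 6 libraries.

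bta-miR-194, which shares a transcript with bta-miR-192, had 11, 54 and 14 reads in control-EVs, against 5, 32 and 9 in HS-EVs. Of the reads without bta-miR-1246 it took 0.0144%, 0.0229% and 0.0190% in control-EVs and 0.0146%, 0.0259% and 0.0104% in HS-EVs. As for bta-miR-192, the lowest and the highest library were both HS-EVs, and all 6 Wilson intervals had values in common (0.0184% to 0.0197%). Means of 28.5 ± 8.76 normalized counts for control-EVs against 23.5 ± 10.6 for HS-EVs (SD, n = 3 each) went with a log2 fold change of -0.31 in limma (standard error 0.50, 95% confidence interval -1.42 to 0.79, adjusted p = 0.892). Without HS-EVs replicate 2 it was -0.64 and without HS-EVs replicate 3 -0.0362. Within a library, there were 0.282, 0.432 and 0.298 reads of bta-miR-194 for each read of bta-miR-192 in control-EVs, and 0.313, 0.390 and 0.220 in HS-EVs. This ratio did not separate the groups (mean log2 ratio -1.57 ± 0.32 for control-EVs against -1.69 ± 0.40 for HS-EVs, SD, n = 3 each; exact permutation test, two-sided, p = 0.8).

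bta-miR-215, which shares its seed with bta-miR-192, was near the limit of detection, with 1, 10 and 2 reads in control-EVs, against 1, 9 and 1 in HS-EVs. Only the replicate 2 library of each group held more than 3 reads, the number taken as the smallest that can be told from 0. Of the reads without bta-miR-1246 this gave 0.00424% in control-EVs replicate 2 and 0.00729% in HS-EVs replicate 2, with overlapping Wilson intervals (0.00231% to 0.00781% and 0.00384% to 0.0139%). In limma's test its log2 fold change was 0.13 (standard error 0.62, 95% confidence interval -1.26 to 1.52, adjusted p = 0.958), and the sign was negative on reads scaled by all reads (-0.86, and -0.0811 without HS-EVs replicate 1), without control-EVs replicate 1 (-0.25) and without HS-EVs replicate 2 (-0.39). A difference between the groups was not detectable at this depth. For each read of bta-miR-192 there were between 0.0244 and 0.110 reads of bta-miR-215.

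bta-miR-885 had 0, 2 and 3 reads in control-EVs, against 0, 1 and 3 in HS-EVs. Since no library exceeded 3 reads, no fold change is given. For the libraries with 0 reads, replicate 1 of both groups, the limit set at 3 reads was 0.00392% (control-EVs) and 0.00879% (HS-EVs) of the reads without bta-miR-1246, and the upper Wilson bound 0.00501% and 0.0113%. It was the only 1 of the 5 members this low throughout, and such low counts were common, as 41.8% of the 512 miRNAs had at most 3 reads in every library. The study counted a miRNA as detected when 2 of the 3 libraries of a group reached 10 normalized counts. By this criterion, bta-miR-122, bta-miR-192 and bta-miR-194 were detected in both groups and bta-miR-215 and bta-miR-885 in neither, while 39.8% of all miRNAs were detected in at least 1 group.

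**Figure D2:**
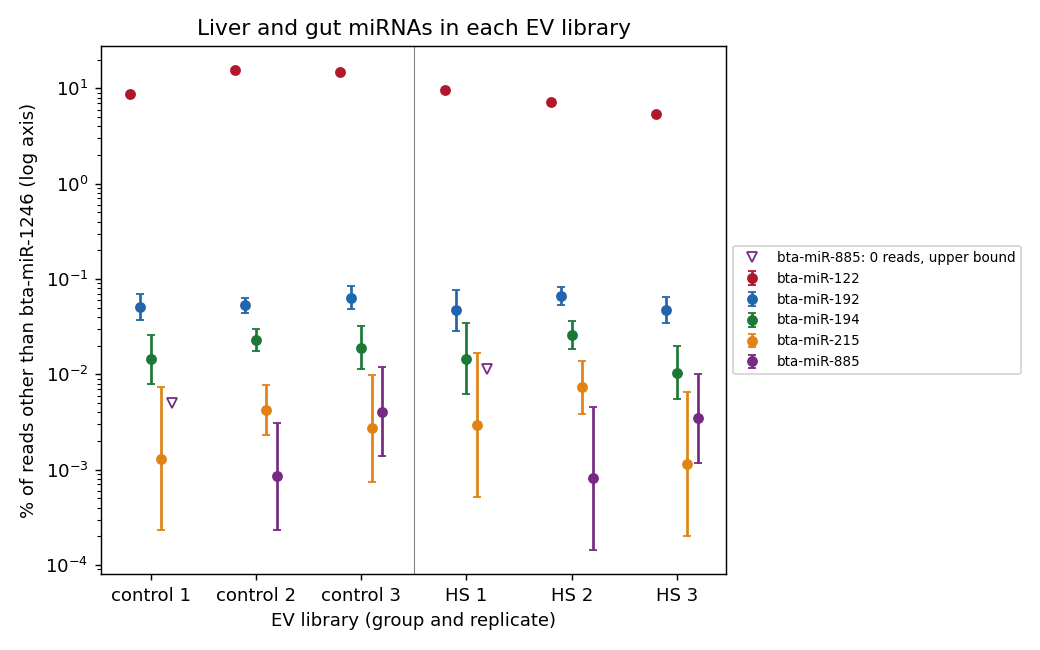
Share of each of the 5 miRNAs among the reads other than bta-miR-1246, on a log axis, for the 3 control-EVs and the 3 HS-EVs libraries. Points are single libraries, bars are 95% Wilson intervals for counting error, and open triangles mark the upper Wilson bound where bta-miR-885 had 0 reads. bta-miR-122 lies between 5.32% and 15.5%, bta-miR-192 between 0.0469% and 0.0664%, and the intervals of bta-miR-215 and bta-miR-885 are wide.

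With bta-miR-1246 kept in the total, the 4 members with a read in every library moved over a wider range. The share of all reads varied 44.1-fold between the lowest and highest library for bta-miR-122, 31.4-fold for bta-miR-192, 43.4-fold for bta-miR-194 and 41.9-fold for bta-miR-215. In each of these 4 miRNAs HS-EVs replicate 1 was the lowest library, and without it the ranges were 7.49-fold, 2.89-fold, 5.70-fold and 9.91-fold in the same order. On this scale the log2 fold changes of the 4 were negative, as were 79.1% of all 512, with -2.44 for bta-miR-122, -1.65 for bta-miR-192 and -1.67 for bta-miR-194. Without HS-EVs replicate 1 these were -1.40, -0.38 and -0.54 (adjusted p = 0.867, 0.909 and 0.907 from limma). Of the 5 members, only bta-miR-122 reached an unadjusted p of 0.05 or less on this scale (0.0326 from limma, adjusted p = 0.671), against 3.32% of all miRNAs, while the groups overlapped in all 5 (they did not in 4.88% of all miRNAs). bta-miR-122, bta-miR-192 and bta-miR-194 took a smaller share of all reads in HS-EVs than in control-EVs in each of the 3 same-numbered pairs, as did 31.4% of all 512 miRNAs. Without bta-miR-1246 in the total, none of these 3 members was lower in all 3 pairs (7.24% of 511 miRNAs were), and bta-miR-122 was higher in HS-EVs in the pair of replicate 1. For the sum of the 5 members, the mean share of all reads was 3.85% ± 2.44 for control-EVs against 0.923% ± 0.828 for HS-EVs (SD, n = 3 each; exact permutation test, two-sided, p = 0.2), and the difference of -2.92 percentage points became -1.73 without control-EVs replicate 2. For the 4 members other than bta-miR-122 it was 0.0223% ± 0.0112 against 0.0117% ± 0.0119 of all reads (p = 0.3, same exact test). This difference of -0.0106 percentage points was -0.00518 without HS-EVs replicate 1, -0.00545 without control-EVs replicate 2, -0.0166 without control-EVs replicate 1 and -0.0170 without HS-EVs replicate 2. For the same 4 it was 0.0791% ± 0.0117 against 0.0757% ± 0.0214 of the reads without bta-miR-1246 (p = 0.8, same exact test), a difference of -0.00339 percentage points whose sign changed without control-EVs replicate 3, HS-EVs replicate 1 or HS-EVs replicate 3 (range -0.0158 to 0.00333 with each library left out).

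Whether the other members followed bta-miR-122 over the 6 libraries was examined on log2(RPM + 1), where RPM is reads per 1000000 reads of a total, with an exact permutation of the library order (720 orders, two-sided) and Benjamini-Hochberg adjustment over the 16 coefficients computed (4 members, 2 totals, Pearson's r and Spearman's rho). RPM of all reads share a total made mostly of bta-miR-1246, which the permutation does not allow for. Among 179 miRNAs the median r with bta-miR-122 on this scale was 0.92. With bta-miR-122, bta-miR-192 had r = 0.96 (permutation p = 0.00139, adjusted 0.0222) and rho = 1.00 (permutation p = 0.00278, adjusted 0.0222). The p of r is the smallest that 720 orders can give. For bta-miR-194 the values were r = 0.96 (permutation p = 0.00556, adjusted 0.0296) and rho = 0.94 (permutation p = 0.0167, adjusted 0.0667). For bta-miR-215 they were r = 0.84 (permutation p = 0.0236, adjusted 0.0756) and rho = 0.83 (permutation p = 0.0583, adjusted 0.156), and for bta-miR-885 r = 0.63 (permutation p = 0.183, adjusted 0.419) and rho = 0.49 (permutation p = 0.328, adjusted 0.583). When the 2 libraries farthest from the median of bta-miR-122 were left out (control-EVs replicate 2 and HS-EVs replicate 1), r was 0.85, 0.78, 0.58 and 0.43 for bta-miR-192, bta-miR-194, bta-miR-215 and bta-miR-885. With any single library other than HS-EVs replicate 2 left out, r stayed at 0.87 or above for bta-miR-192 and bta-miR-194, but the adjusted permutation p of both was 0.0667 to 0.333, the highest without HS-EVs replicate 1. For bta-miR-215, r was 0.94 without HS-EVs replicate 2 (permutation p adjusted over 5 libraries 0.05). On the authors' normalized counts, r was 0.55 for bta-miR-192 and 0.63 for bta-miR-194 (exact permutation, adjusted p = 0.674 for both).

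In RPM of the reads without bta-miR-1246, no association with bta-miR-122 was detected for any of the 4 (adjusted permutation p = 0.506 or more). For bta-miR-192, r was 0.28 (permutation p = 0.564, adjusted 0.694) and rho 0.14 (permutation p = 0.803, adjusted 0.901). For bta-miR-194 they were 0.54 (permutation p = 0.253, adjusted 0.506) and 0.43 (permutation p = 0.419, adjusted 0.663), for bta-miR-215 0.35 (permutation p = 0.492, adjusted 0.663) and 0.37 (permutation p = 0.497, adjusted 0.663), and for bta-miR-885 0.01 (permutation p = 0.975, adjusted 0.975) and 0.12 (permutation p = 0.844, adjusted 0.901). Without the 2 libraries farthest from the median (control-EVs replicate 2 and HS-EVs replicate 3), r was 0.10, -0.24, -0.34 and 0.54 in the same order. These values moved with single libraries of both groups. Without control-EVs replicate 3, r was 0.0080 for bta-miR-192 and -0.36 for bta-miR-885. For bta-miR-194, r was 0.98 without HS-EVs replicate 2 (exact permutation p adjusted over the 16 coefficients of 5 libraries 0.0381) and 0.0897 without HS-EVs replicate 3 (adjusted 1). Without the same 2 libraries in turn, r was 0.70 and -0.0394 for bta-miR-192 and 0.86 and -0.0963 for bta-miR-215. bta-miR-122 is itself part of this total, and with its reads taken out too, r was 0.52, 0.63, 0.40 and 0.05 for the 4 members in the same order (adjusted permutation p = 0.663 or more). The change of r with the total was not tested as a difference, and no r is given within a group, which holds only 3 libraries.

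**Figure D3:**
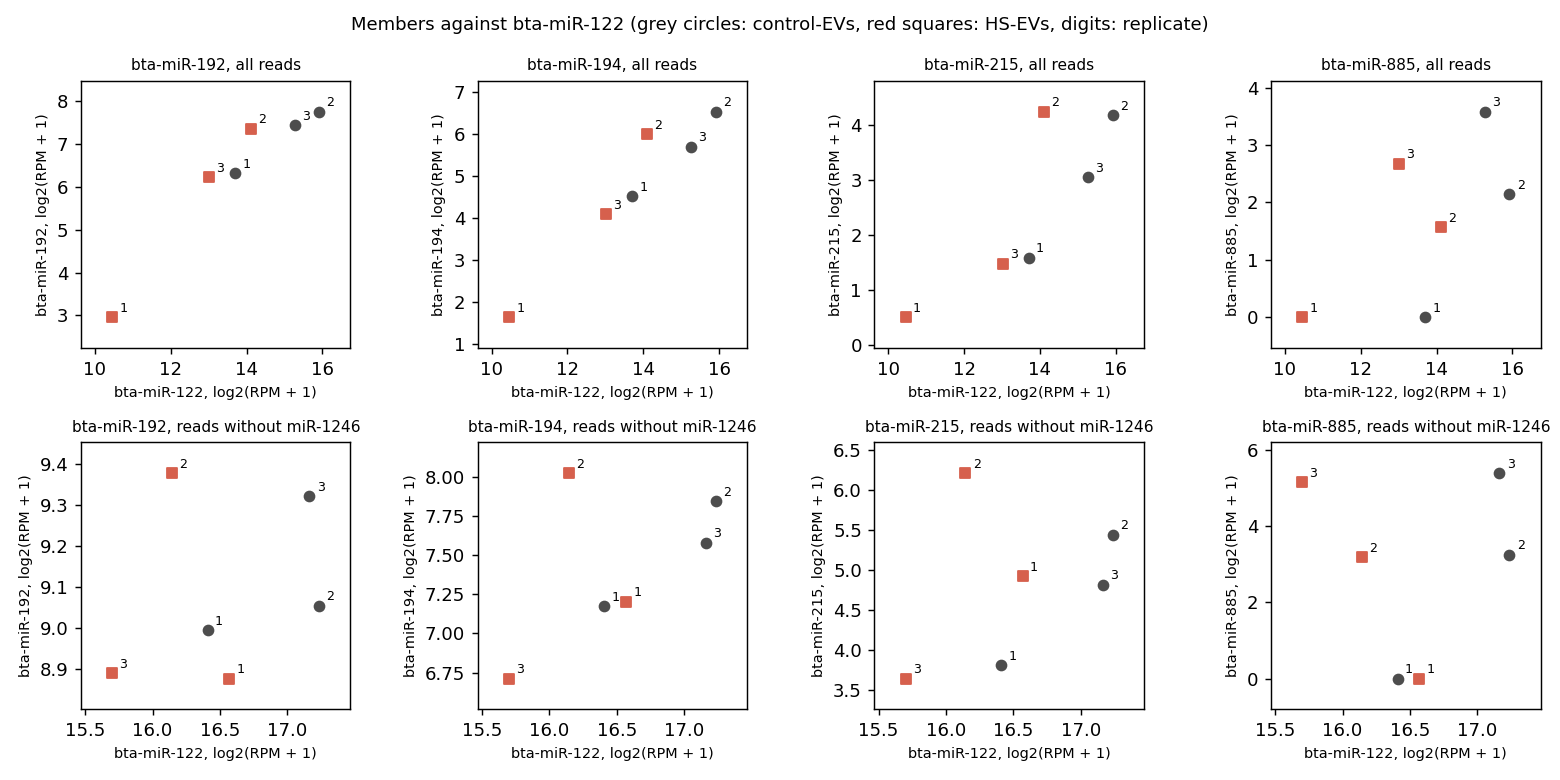
Each of the other 4 members against bta-miR-122 over the 6 EV libraries, as log2(RPM + 1), from all reads (upper row) and from reads without bta-miR-1246 (lower row). Grey circles are control-EVs, red squares HS-EVs, and digits the replicate. In the upper row the points of bta-miR-192 and bta-miR-194 rise from HS-EVs replicate 1 at the lower left to control-EVs replicate 2 at the upper right (r = 0.96 for both), and in the lower row they scatter (r = 0.28 and 0.54).

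High values of r on all reads were common. Among the 179 miRNAs other than bta-miR-122 with at least 1 read in all 6 libraries and a mean of 10 reads or more, the median r with bta-miR-122 was 0.92 on all reads, and 82.1% had an r above 0.8. These miRNAs share the total, and r is a description. bta-miR-192 and bta-miR-194 came 40th and 34th by this r. Without bta-miR-1246 in the total, the median r was -0.26, 112 of the 179 had a negative r, and 8 had an r above 0.8. bta-miR-192 and bta-miR-194 were then 46th and 29th of 179, while bta-miR-215 and bta-miR-885 had too few reads to be ranked. bta-miR-1246 itself had an r of -0.93 with bta-miR-122 on all reads.

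**Figure D4:**
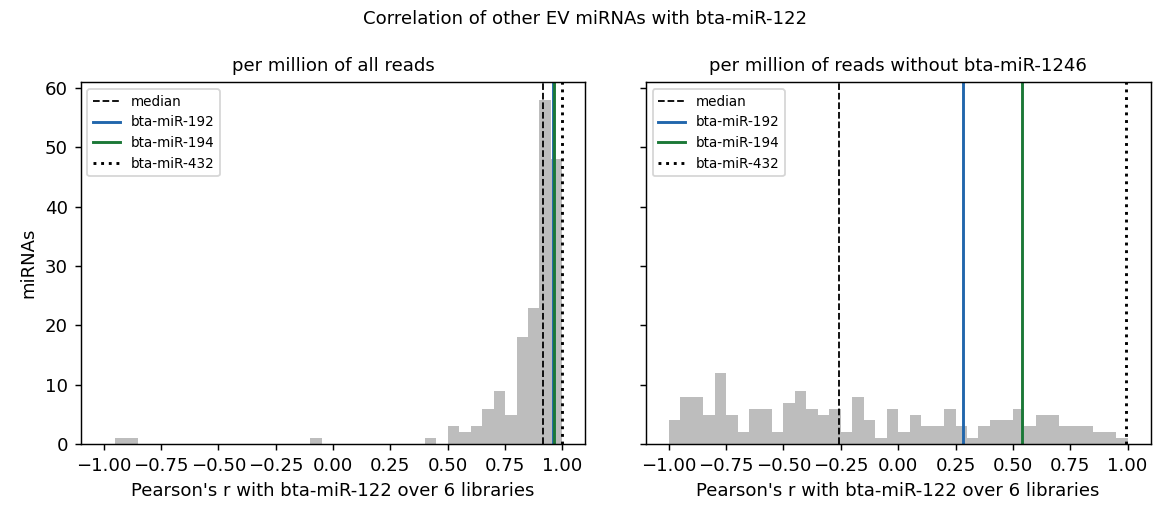
Number of miRNAs by Pearson's r with bta-miR-122 over the 6 libraries, for 179 miRNAs, on all reads (left) and on reads without bta-miR-1246 (right). The dashed line is the median (0.92 on the left, -0.26 on the right), solid lines mark bta-miR-192 and bta-miR-194, and the dotted line bta-miR-432 (0.99 on the right).

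The miRNAs most like bta-miR-122 on the total without bta-miR-1246 were not members. They were bta-miR-432 (r = 0.99), bta-miR-16b (0.94), bta-miR-199a-3p (0.93), bta-miR-148a (0.87) and bta-miR-877 (0.86), over 6 libraries and picked from 179 for this r. The same 5 also came first on the authors' normalized counts. bta-miR-432, a miRNA of the imprinted DLK1-DIO3 region, took 0.0914%, 0.152% and 0.147% of the reads without bta-miR-1246 in control-EVs, against 0.0937%, 0.0664% and 0.0565% in HS-EVs, so that its libraries stood in the same order as those of bta-miR-122. bta-miR-148a, which is abundant in liver among other tissues, took 1.02%, 2.32% and 2.19% in control-EVs, against 1.00%, 1.24% and 0.919% in HS-EVs. Other miRNAs of liver, pancreas and digestive epithelium with enough reads to be ranked did not share this likeness. Their r was 0.46 (bta-miR-101), -0.48 (bta-miR-483) and -0.71 (bta-miR-22-3p).

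The reads of a member for each read of bta-miR-122 depend on neither total. For 1000 reads of bta-miR-122 there were 5.85, 3.43 and 4.35 reads of bta-miR-192 in control-EVs, against 4.82, 9.17 and 8.88 in HS-EVs. The Wilson intervals of HS-EVs replicates 2 and 3 (7.38 to 11.4 and 6.54 to 12.1) lay above those of control-EVs replicates 2 and 3 (2.88 to 4.09 and 3.27 to 5.79), while that of HS-EVs replicate 1 (2.96 to 7.84) overlapped all of these and that of control-EVs replicate 1 (4.28 to 8.01) all but that of control-EVs replicate 2. The mean log2 ratio, with 0.5 reads added to each count, was -7.80 ± 0.39 for control-EVs against -7.07 ± 0.50 for HS-EVs (SD, n = 3 each), higher by 0.73 (exact permutation test, two-sided, p = 0.2). For bta-miR-194 there were 1.65, 1.48 and 1.30 reads for 1000 of bta-miR-122 in control-EVs and 1.51, 3.58 and 1.95 in HS-EVs, with a difference of 0.61 in mean log2 ratio (exact permutation test, two-sided, p = 0.2) that was 0.29 without HS-EVs replicate 2. Without HS-EVs replicate 1, the differences were 1.02 for bta-miR-192 and 0.85 for bta-miR-194 (exact permutation test, two-sided, p = 0.1 each, as low as this test goes), and the groups of both no longer overlapped, as was then the case, in the same direction, for 43.4% of 511 miRNAs. For bta-miR-215 there were 0.150, 0.275 and 0.185 reads for 1000 in control-EVs and 0.301, 1.01 and 0.217 in HS-EVs. These overlap, and only the log2 ratios with 0.5 reads added do not (exact permutation test, two-sided, p = 0.1, the least possible), while 4 of the 6 values rest on 1 or 2 reads. This difference was 1.13, and 0.64 without HS-EVs replicate 2. bta-miR-215 was the only 1 of the 4 members without overlap on the log2 ratio, against 23.1% of all 511 miRNAs set against bta-miR-122, all of them higher in HS-EVs.

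**Figure D5:**
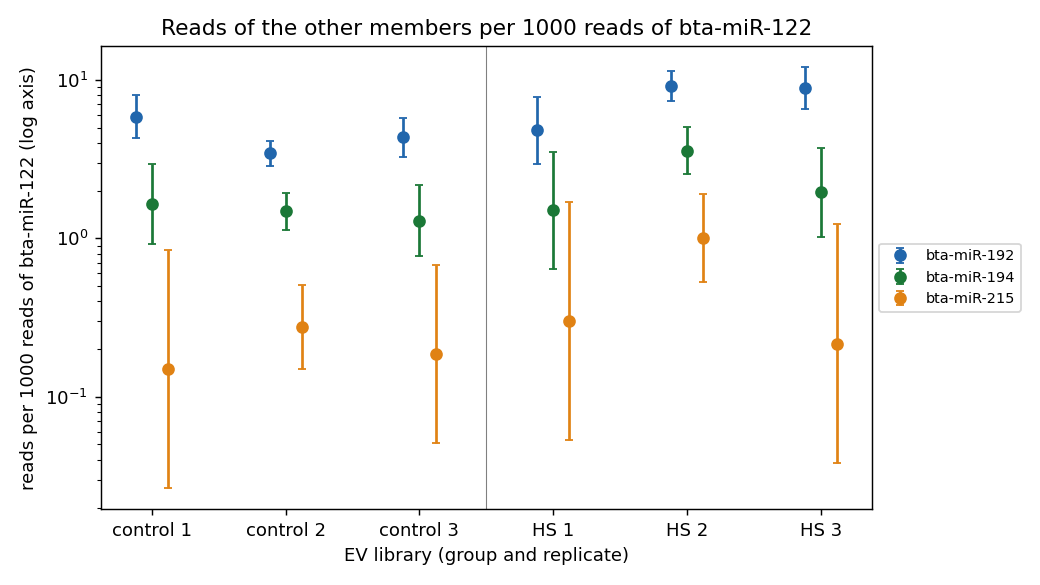
Reads of bta-miR-192, bta-miR-194 and bta-miR-215 for 1000 reads of bta-miR-122 in each EV library, on a log axis, with 95% Wilson intervals for counting error. The points of bta-miR-192 lie between 3.43 and 5.85 in control-EVs and between 4.82 and 9.17 in HS-EVs, and the intervals of bta-miR-215 span most of its range.

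Other miRNAs of liver, pancreas and digestive epithelium gave no common direction. Of 14 names listed for these tissues, 10 were present, and 0 of the 10 passed the study's threshold in limma's test (0% of all miRNAs), while 4 had positive and 6 negative log2 fold changes. Their median log2 fold change was -0.12, that of the 5 members -0.18 (fitted values, bta-miR-885 included) and that of all 512 miRNAs 0.01. The pancreatic miRNAs bta-miR-216a, bta-miR-216b and bta-miR-217 and the hepatic bta-miR-802 were not among the listed miRNAs. The most abundant of the 10 was bta-miR-148a, with 2809 ± 1231 normalized counts for control-EVs against 1466 ± 201 for HS-EVs (SD, n = 3 each; log2 fold change -0.83, standard error 0.50, adjusted p = 0.873 from limma). bta-miR-101 had 422 ± 27.1 and 383 ± 53.1 (SD, n = 3 each). For bta-miR-22-3p the means were 177 ± 31.8 and 270 ± 30.6 (SD, n = 3 each). Its log2 fold change was 0.61 (limma, standard error 0.43, adjusted p = 0.873), and its groups did not overlap in normalized counts, as in 6.45% of all miRNAs and in 0 of the 5 members. bta-miR-429, the other of the 10 whose groups did not overlap, had lower values in HS-EVs, with 1, 3 and 1 reads in control-EVs and 0, 1 and 0 in HS-EVs. No library exceeded the floor of 3 reads, so that no direction is read from these counts. bta-miR-429 was the only 1 of the 10 at an unadjusted p of 0.05 or less (0.0284 from limma, adjusted p = 0.870; 4.88% of all miRNAs), and it is named after its values were seen. bta-miR-483 had a mean of 22.4 normalized counts over the 6 libraries, and the 5 members of the epithelial miR-200 family and the islet miRNA bta-miR-375 each had 5.50 or less.

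Markers of other cell types were compared with bta-miR-122 on the total without bta-miR-1246. The 6 granulosa-associated miRNAs, led by bta-miR-21-5p and bta-miR-202, took 5.93% to 11.4% of these reads in total, and 4 of the 6 were detected by the study's criterion. bta-miR-122 alone took a larger share than these 6 together in all 3 control-EVs libraries and in HS-EVs replicate 1, and a smaller one in HS-EVs replicates 2 and 3 (7.25% against 11.2%, and 5.32% against 10.2%). The sum was mostly bta-miR-21-5p, with 4.67%, 5.70% and 9.99% in control-EVs and 4.49%, 10.1% and 9.44% in HS-EVs. bta-miR-202, the next in abundance, took 0.719% to 1.49%, so that the order in HS-EVs replicates 2 and 3 rests on bta-miR-21-5p. The 7 blood cell miRNAs, led by bta-miR-486, summed to 0.516% to 1.15% of these reads in control-EVs and 0.434% to 0.785% in HS-EVs, and each of the 7 had a read in every library. The 7 striated muscle miRNAs, led by bta-miR-1, summed to 0.412%, 0.615% and 0.381% in control-EVs, against 1.15%, 0.189% and 0.364% in HS-EVs. For this sum, HS-EVs replicates 2 and 3 lay below every control-EVs library, and HS-EVs replicate 1 above them all. In limma's test 0 miRNAs of these 3 lists passed the study's threshold, and their median log2 fold changes were 0.04, -0.19 and -0.26 for granulosa, blood cell and muscle lists. What part these cell types had in the values of bta-miR-122 was not tested.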

How the data were processed

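Small RNA of EVs was sequenced in 6 libraries, 3 control-EVs and 3 HS-EVs, grouped by the sample titles. The authors trimmed adapters, collapsed reads with the same molecular identifier, mapped them to the bovine genome and miRBase, and used TMM scaling from edgeR. The submitters' processing notes name cutadapt 1.11, Bowtie2 2.2.2 and UMD3.1. The deposited values, 1 normalized read count for each miRNA and library, were treated here as a signal and not as raw counts. Divided by the smallest value above 0 of their library, 100% came out whole (tolerance 0.001), and these quotients were taken as reads. They are too low by a factor where no miRNA of a library had a single read. Collapsing limits PCR duplicates, and Wilson intervals (95%) and the floor of 3 reads cover counting error only.

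limma (3.58.1, R 4.3.3, default settings) was run on log2(normalized count + 1) over all 512 miRNAs with Benjamini-Hochberg adjustment. Such fold changes are too small where reads are few. Group differences of single values were tested by two-sided exact permutation (10 divisions of the libraries). edgeR (4.0.16), DESeq2 (1.42.0), other scalings, pseudocounts, filters, a replicate block and leaving out each library were alternatives. The counts of all 15 pairs of libraries differed beyond sampling noise (chi-square per degree of freedom at least 34.3). No source links replicate numbers to shared cultures, so that the main tests did not pair libraries, and same-numbered libraries are set side by side only as a description.

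The miRNAs named were the members, bta-miR-1246, the 5 non-members with the highest r with bta-miR-122 among miRNAs with a read in all 6 libraries and a mean of 10 reads, and up to 4 of each marker list by mean normalized count. The members and lists were chosen with earlier results of these data known. The RefSeq table gave gene names and neighbours only.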

Additional observations from a re-analysis of the deposited data

How the results depend on the processing

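The log2 fold changes of bta-miR-122, bta-miR-192 and bta-miR-194 stayed negative and short of the study's threshold under every alternative run, with -2.44, -1.65 and -1.67 on reads scaled by all reads (-1.40, -0.38 and -0.54 there without HS-EVs replicate 1) and, on normalized counts with each library left out, between -0.33 and -0.10 for bta-miR-192 and between -0.64 and -0.0362 for bta-miR-194. That of bta-miR-215 was -0.86 on reads scaled by all reads (-0.0811 without HS-EVs replicate 1, added once the data had been seen) and lay between -0.39 and 0.63 with each library left out. For bta-miR-885, at 3 reads or fewer in every library, fitted fold changes are not reported singly. The difference in share of all reads of bta-miR-215 (-0.000211 percentage points) was 0.00104 on the total without bta-miR-1246 and between -0.000766 and 0.000201 with each library left out, and that of bta-miR-885 (-0.000233) between -0.000472 and 7.49e-05. Over all 512 miRNAs, the count past the threshold moved from 0 to 1 (pseudocount 0.5, or scaling without bta-miR-1246), 2 (limma with a trend), 3 (edgeR's quasi-likelihood test, also under the authors' own TMM factors, chosen after the data were examined) and 8 (the same test under a replicate block, also chosen after the data were examined), and between 0 and 4 with a library left out (4 without control-EVs replicate 2); no member was among them. Deviations of same-numbered libraries correlated by 0.14, 0.14 and 0.08, against -0.13 to 0.02 for libraries of different numbers. With the number as a replicate block, limma gave bta-miR-122 an adjusted p of 0.835 (log2 fold change -0.91) and 0 calls. The r with bta-miR-122 on all reads fell short of the 0.05 level on RPM without a log (0.89 for both bta-miR-192 and bta-miR-194), on the authors' normalized counts (0.55 and 0.63), as deviations from the replicate numbers (a block; 0.92 and 0.96, where 3 pairs cannot reach it) and with any library but HS-EVs replicate 2 left out. With each library left out it lay between 0.90 and 0.97 for bta-miR-192, 0.87 and 1.00 for bta-miR-194 and 0.72 and 0.94 for bta-miR-215, and without bta-miR-1246 between -0.0394 and 0.70 (bta-miR-192), 0.0897 and 0.98 (bta-miR-194), -0.10 and 0.86 (bta-miR-215) and -0.36 and 0.54 (bta-miR-885, 0.92 under the block). The difference in share without bta-miR-1246 of the 4 members other than bta-miR-122 lay between -0.0158 and 0.00333 percentage points with each library left out, a check added once the data had been seen. The cause of these shifts was not tested. Depth limits bta-miR-215 and bta-miR-885 most.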
